A study of Mus musculus with 7 samples.

Results

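The core circadian clock genes are the 10 genes that make up the molecular clock and its first output: the activators Arntl (also written Bmal1) and Clock, the repressors Per1, Per2, Per3, Cry1, Cry2, Nr1d1 and Nr1d2, and the output factor Dbp. They were taken by gene symbol from a table of 48820 genes, in which all 10 were present. The RNA was of whole tibialis anterior (TA), a shin muscle, taken on day 3 after BaCl2, a salt that kills muscle fibres, had been used to injure it. All mice were male and aged 7 weeks. The 4 Sirt7 scKO libraries came from mice of genotype Sirt7fl/fl; Pax7-CreERT2, and the 3 control libraries from mice of genotype WT; Pax7-CreERT2, so that both groups carried the recombinase and the injury. Pax7-CreERT2 is a drug-inducible recombinase active where Pax7 is made, that is in muscle stem cells, whereas the libraries hold RNA of every cell type in the tissue. The sources used here give neither the drug dosing nor the hour at which muscles were collected.

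In the clock, the proteins of Arntl and Clock bind DNA together at E-boxes and switch on the Per, Cry, Nr1d and Dbp genes. The PER and CRY proteins then block this pair, and the nuclear receptors REV-ERB alpha and beta, made from Nr1d1 and Nr1d2, repress Arntl, which gives a daily cycle in nearly every tissue. Dbp encodes a transcription factor that binds D-boxes and passes the cycle on to other genes. In skeletal muscle the clock times metabolic genes, and levels of its genes depend on the hour of collection.

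Total counts were 5425095 to 7553137 in Sirt7 scKO libraries and 5601699 to 5777563 in control libraries. Levels are given as CPM, counts scaled to a common library size with TMM factors, and differences as log2 fold changes of Sirt7 scKO over control with the standard error (SE) of edgeR's quasi-likelihood fit over 16764 genes. Sirt7 itself, the targeted gene, stood at 39.7, 34.1, 47.9 and 52.97 CPM in Sirt7 scKO libraries and 46.2, 70.6 and 57.3 CPM in control libraries, with overlap (log2 fold change -0.42, SE 0.162, edgeR adjusted p = 0.288). The fibre gene Ckm, a defining marker of skeletal muscle, stood at 163 ± 141 CPM in Sirt7 scKO and 334 ± 143 CPM in control (SD, n = 4 and 3).

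None of the 10 clock genes passed an edgeR adjusted p of 0.05, which 0.131% of all tested genes passed, 0.101% as higher and 0.0298% as lower in Sirt7 scKO. At an unadjusted p under 0.05 there were 2 of the 10, Dbp and Nr1d1, against 13.6% of all tested genes. In both of these genes all 4 Sirt7 scKO values lay under all 3 control values, which held for 5.71% of all tested genes, and in none of the 10 did they lie above them, which held for 6.51%. Of the 10 log2 fold changes 4 were positive and 6 negative, with a median of -0.05, and the median over all tested genes was 0.01. DESeq2 passed 1 of the 10, Dbp, and 168 of the 14115 genes to which it gave an adjusted p. With limma voom 0 of the 10 passed, and 23 of all 16764 genes. Counts come from whole muscle, so fewer cells of a type and less RNA per cell cannot be told apart.

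**Figure D1:**
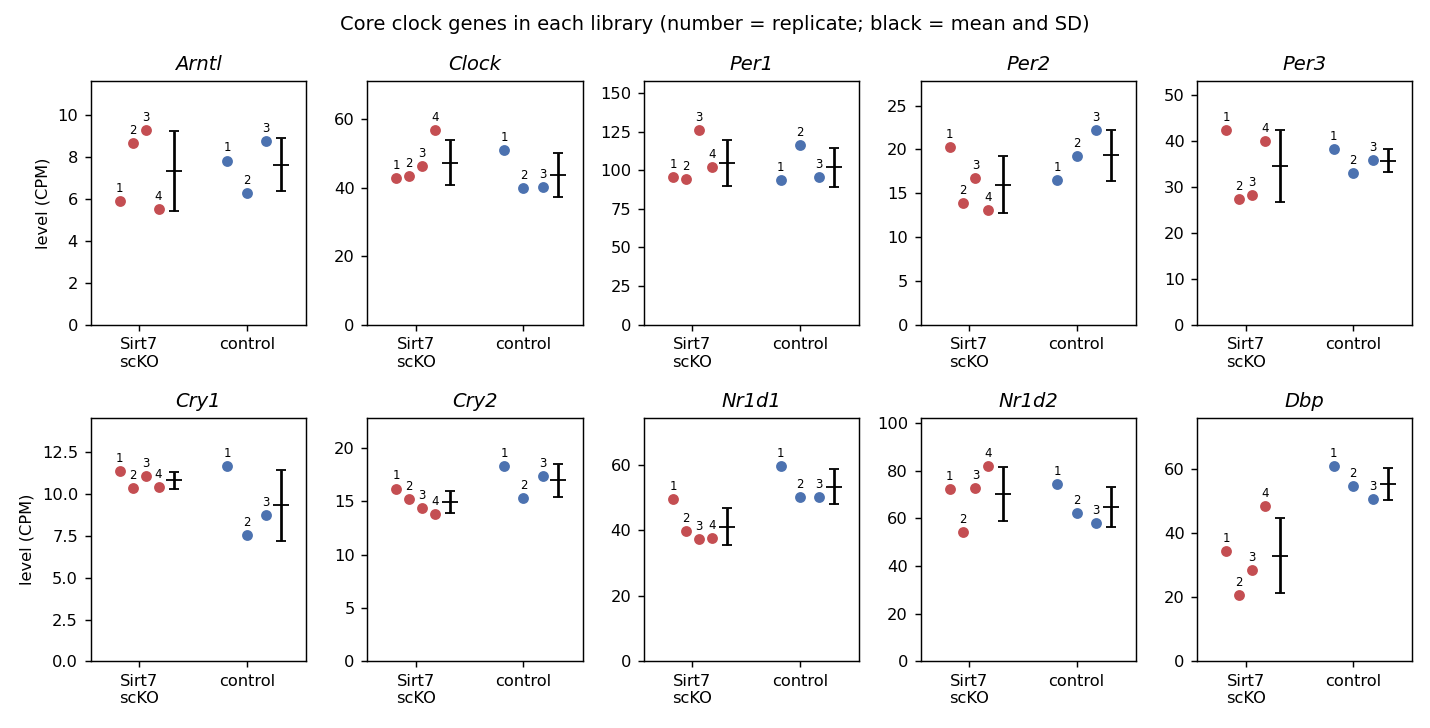
Level of each clock gene in CPM (vertical axis, from 0) in the 4 Sirt7 scKO libraries (red) and the 3 control libraries (blue), 1 panel per gene, with replicate numbers beside the points and mean and SD in black. Dbp and Nr1d1 are the panels in which the red points all lie below the blue ones, by a narrow gap in Nr1d1, where 49.4 CPM in Sirt7 scKO replicate 1 lies under 50.1 CPM in control.

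Dbp (ENSMUSG00000059824.12, GRCm38 chromosome 7, 45705088 to 45710203, plus strand) had the largest difference of the 10. It stood at 34.2, 20.5, 28.4 and 48.2 CPM in Sirt7 scKO replicates 1 to 4, against 60.6, 54.4 and 50.6 CPM in control replicates 1 to 3. The groups did not overlap, but Sirt7 scKO replicate 4 came close to the lowest control library. The means were 32.9 ± 11.7 CPM in Sirt7 scKO and 55.2 ± 5.05 CPM in control (SD, n = 4 and 3), and the log2 fold change was -0.76 (95% interval -1.21 to -0.32, SE 0.207, edgeR adjusted p = 0.153). Without Sirt7 scKO replicate 4 the log2 fold change was -0.997 and passed the threshold (edgeR adjusted p = 0.00842), as did 330 of all 16794 genes tested there. Over 17 alternatives the adjusted p ran from 3.2e-05 to 0.471. Dbp also varied more within groups than most genes, with a standard deviation of 0.40 on the log2 CPM scale, larger than in 97.8% of the 3290 genes whose mean level lay within 0.5 log2 units of its own. This was not particular to Dbp. The same share was 92.3% for Per3, 90.5% for Nr1d2, 86.4% for Per1 and 69.3% to 82.0% for Clock, Per2, Nr1d1 and Arntl. It was 34.1% for Cry1 and 9.30% for Cry2.

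Exons of Dbp share 539 bases with those of Sphk2, a lipid kinase gene on the opposite strand, and the library kit named in the labels does not mark strand, so reads in that stretch cannot be told apart. Sphk2 stood at 83.0, 61.1, 74.4 and 93.7 CPM in Sirt7 scKO libraries, against 93.8, 91.3 and 92.2 CPM in control libraries (log2 fold change -0.25, SE 0.121, edgeR adjusted p = 0.393). Its groups overlapped, and replicate 2 was the lowest Sirt7 scKO library in both genes. The ratio of Dbp to Sphk2 CPM within a library was 0.336 to 0.515 in Sirt7 scKO and 0.549 to 0.646 in control, a comparison chosen after the values were seen.

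Nr1d1 (ENSMUSG00000020889.11, chromosome 11, 98767932 to 98775333, minus strand), which encodes REV-ERB alpha, had 49.4, 39.8, 37.4 and 37.6 CPM in Sirt7 scKO libraries and 59.4, 50.1 and 50.1 CPM in control libraries. Each Sirt7 scKO library was below each control library, the highest of them by less than 1 CPM. The log2 fold change was -0.37 (95% interval -0.63 to -0.11, SE 0.119, edgeR adjusted p = 0.218), and it stayed negative in all 17 alternatives, with an adjusted p from 0.0659 to 0.504. Its 3′ end shares 263 exonic bases with Thra, the thyroid hormone receptor alpha gene on the opposite strand. Thra was likewise lower in each Sirt7 scKO library, at 58.7 to 60.9 CPM against 67.7 to 74.0 CPM in control (log2 fold change -0.26, SE 0.0831, edgeR adjusted p = 0.217). The ratio of Nr1d1 to Thra CPM within a library, looked at after the values were seen, overlapped between groups. It was 0.618 to 0.818 in Sirt7 scKO and 0.679 to 0.803 in control. Without strand, how much of either difference lies in the shared bases was not tested.

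In Nr1d2, the paralog of Nr1d1, the groups overlapped. Nr1d2 (ENSMUSG00000021775.10, chromosome 14, 18204054 to 18239127, minus strand), which encodes REV-ERB beta, had 72.3, 54.4, 72.6 and 81.7 CPM in Sirt7 scKO libraries and 74.2, 62.2 and 58.2 CPM in control libraries. The highest and the lowest value were both in Sirt7 scKO, and the log2 fold change was 0.11 (95% interval -0.18 to 0.40, SE 0.133, edgeR adjusted p = 0.757). The ratio of Nr1d1 to Nr1d2 CPM within a library, looked at after the values were seen, was 0.461 to 0.731 in Sirt7 scKO and 0.801 to 0.861 in control. A test of the difference between the fold changes of Nr1d1 and Nr1d2 was not made. The ratio of Nr1d1 to Arntl CPM overlapped between groups, at 4.03 to 8.36 in Sirt7 scKO and 5.72 to 7.97 in control.

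Both activators overlapped between groups. Arntl (ENSMUSG00000055116.8, chromosome 7, 113207465 to 113314126, plus strand) had 5.91, 8.63, 9.28 and 5.49 CPM in Sirt7 scKO libraries and 7.82, 6.29 and 8.76 CPM in control libraries. Sirt7 scKO replicates 2 and 3 were above control replicate 1, and replicates 1 and 4 were the lowest of all 7 libraries. The log2 fold change was -0.05 (95% interval -0.55 to 0.45, SE 0.232, edgeR adjusted p = 0.950), and its sign turned in 4 of 17 alternatives. With 29 to 66 counts per library, counting error alone gave Arntl a relative SD of 18.6% at its lowest count, and the interval also holds the spread between libraries. Clock (ENSMUSG00000029238.11, chromosome 5, 76209868 to 76304792, minus strand), with 223 to 331 counts, had 42.9, 43.3, 46.3 and 56.9 CPM in Sirt7 scKO and 51.1, 40.1 and 40.1 CPM in control. Its highest value was in Sirt7 scKO replicate 4 and the next in control replicate 1, and the log2 fold change was 0.11 (95% interval -0.17 to 0.39, SE 0.128, edgeR adjusted p = 0.755).

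Among the period genes, whose proteins hold back the activators, Per1 was the best measured and the least different. Per1 (ENSMUSG00000020893.17, chromosome 11, 69095217 to 69109960, plus strand), which also responds to glucocorticoids and to cAMP, had 95.7, 94.2, 126 and 102 CPM in Sirt7 scKO libraries and 93.6, 116 and 95.7 CPM in control libraries. Each group held 1 library well above its others, and the log2 fold change was 0.04 (95% interval -0.21 to 0.29, SE 0.115, edgeR adjusted p = 0.913). Per2 (ENSMUSG00000055866.9, chromosome 1, 91415982 to 91459324, minus strand) had 20.3, 13.9, 16.8 and 13.1 CPM in Sirt7 scKO, against 16.5, 19.2 and 22.2 CPM in control. Sirt7 scKO replicates 2 and 4 lay below all control libraries, replicates 1 and 3 did not, and the log2 fold change was -0.27 (95% interval -0.64 to 0.10, SE 0.171, edgeR adjusted p = 0.525). Per3 (ENSMUSG00000028957.12, chromosome 4, 151003652 to 151044665, minus strand) had 42.3, 27.3, 28.1 and 39.9 CPM in Sirt7 scKO, against 38.2, 33.1 and 35.7 CPM in control. The Sirt7 scKO libraries lay on either side of the control range, 2 above and 2 below, so that a log2 fold change of -0.06 (95% interval -0.39 to 0.28, SE 0.157, edgeR adjusted p = 0.905) stood beside a wider spread in Sirt7 scKO, with an SD of 7.80 CPM against 2.58 CPM in control.

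The cryptochromes Cry1 and Cry2, the strongest repressor proteins of the loop, had small differences of opposite sign. Cry1 (ENSMUSG00000020038.9, chromosome 10, 85131700 to 85185064, minus strand) had 11.4, 10.3, 11.1 and 10.4 CPM in Sirt7 scKO libraries and 11.6, 7.55 and 8.76 CPM in control libraries. All 4 Sirt7 scKO values lay between the highest control value and the other 2 (log2 fold change 0.21, 95% interval -0.17 to 0.60, SE 0.179, edgeR adjusted p = 0.638). Cry2 (ENSMUSG00000068742.11, chromosome 2, 92403646 to 92434043, minus strand) had 16.2, 15.2, 14.4 and 13.8 CPM in Sirt7 scKO and 18.2, 15.3 and 17.3 CPM in control. Only Sirt7 scKO replicate 1 lay above the lowest control library, and the log2 fold change was -0.18 (95% interval -0.47 to 0.10, SE 0.134, edgeR adjusted p = 0.576). Cry2 shares 295 exonic bases with the transcript D930015M05Rik on the opposite strand, which held 2 to 16 counts per library, against 73 to 116 for Cry2.

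**Figure D2:**
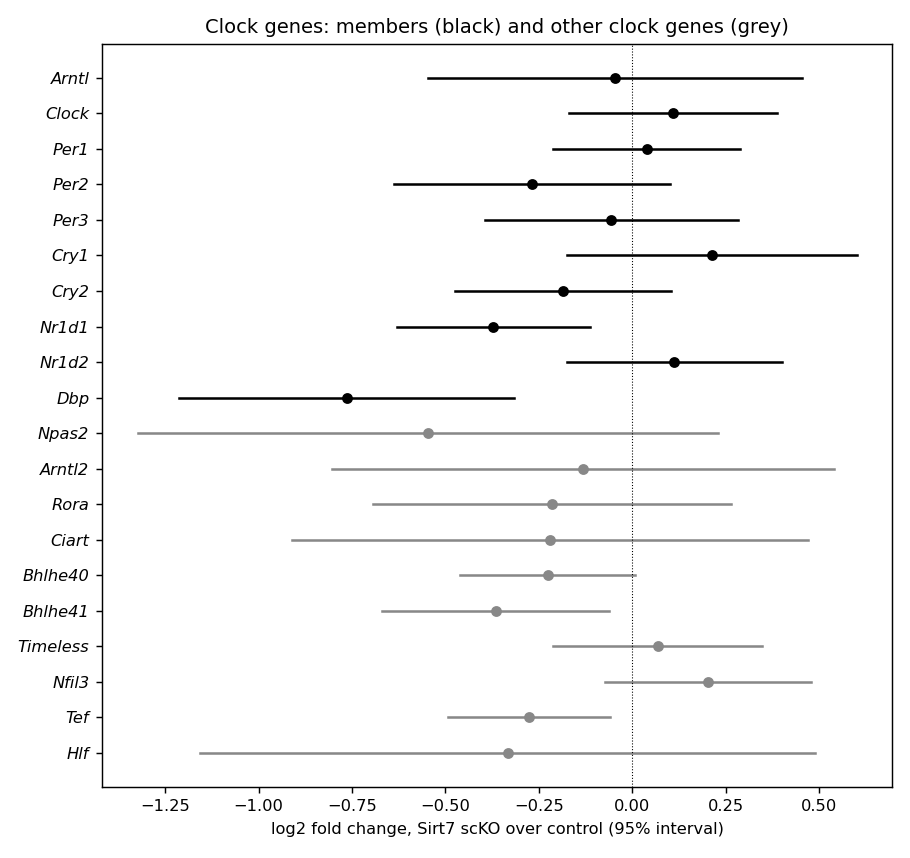
Log2 fold change of Sirt7 scKO over control (horizontal axis, points) with its 95% interval (lines) for the 10 core clock genes (black) and 10 other clock genes (grey), from the edgeR fit. Among the black lines those of Dbp (-1.21 to -0.32) and Nr1d1 (-0.63 to -0.11) exclude 0, before any adjustment for the number of genes tested.

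To compare levels between genes, CPM were divided by exonic length in kilobases, giving RPKM. Per1, Nr1d1, Nr1d2 and Dbp formed an upper tier in both groups, and Arntl was the lowest gene. In Sirt7 scKO libraries the order was Per1 at 18.6 ± 2.63 RPKM, Nr1d1 at 13.3 ± 1.84, Nr1d2 at 13.0 ± 2.11 and Dbp at 10.98 ± 3.90 RPKM (SD, n = 4), where Per1 stood clear of Nr1d1 and the ranges of the other neighbours overlapped. In control libraries it was Dbp at 18.5 ± 1.69 RPKM, Per1 at 18.1 ± 2.22, Nr1d1 at 17.3 ± 1.75 and Nr1d2 at 12.0 ± 1.54 RPKM (SD, n = 3), where the ranges of Dbp, Per1 and Nr1d1 overlapped and Nr1d2 stood clear below them. By its mean, Dbp was thus the lowest of the upper tier in Sirt7 scKO, with a range that overlapped that of Nr1d2, and level with Per1 in control. Per3, Clock, Cry1, Per2 and Cry2 lay between 2.19 and 4.41 RPKM in Sirt7 scKO and between 2.26 and 3.98 RPKM in control, and no neighbours among them stood clear of each other in either group. Arntl had 0.974 ± 0.254 RPKM in Sirt7 scKO and 1.01 ± 0.166 RPKM in control, clear of Cry2 in both. The lengths count every annotated exon, so genes with unused long exons come out too low on this scale.

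**Figure D3:**
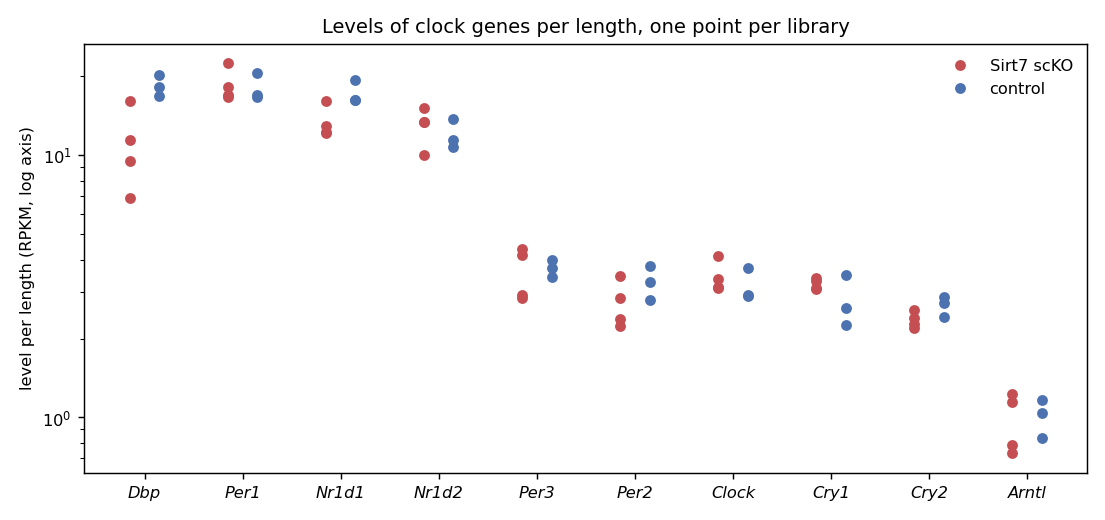
Level per length of each clock gene in RPKM (log axis), 1 point per library, Sirt7 scKO in red to the left of control in blue. Per1, Nr1d1, Nr1d2 and Dbp lie between 6.86 and 22.4 RPKM and Arntl near 1 RPKM in both groups, with the other 5 genes between them.

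RefSeq start sites on GRCm38.p6 were listed for 9 of the 10 genes, and the 250 bases before each were searched on both strands for the elements through which clock proteins act. The E-box CACGTG, bound by the activators, was held by 6.02% of all 32851 promoters in that table, and its variant CACGTT by 3.85%. The D-box, searched as TTATGTAA and TTATGCAA and bound by DBP, was held by 1.501%, the core TAGGTCA of the element bound by REV-ERB and ROR proteins by 2.23%, and the cAMP response element TGACGTCA by 1.546%. Shown are the sequences of the 2 genes whose groups did not overlap and the 2 that held more than 1 match and lie outside the annotated gene, with matches in capitals and bases inside the GENCODE gene left out. Per3 (chr4:151044666-151044915, minus strand) held a pair of D-boxes, 205 and 158 bases before its start. Cry1 (chr10:85185065-85185304, minus strand) held an E-box 60 bases and the variant 79 bases before its start. Nr1d1 (chr11:98775378-98775627, minus strand) held the variant 28 bases before its start. Dbp (chr7:45704997-45705087, plus strand) held none of these letters in all 250 bases.
Per3: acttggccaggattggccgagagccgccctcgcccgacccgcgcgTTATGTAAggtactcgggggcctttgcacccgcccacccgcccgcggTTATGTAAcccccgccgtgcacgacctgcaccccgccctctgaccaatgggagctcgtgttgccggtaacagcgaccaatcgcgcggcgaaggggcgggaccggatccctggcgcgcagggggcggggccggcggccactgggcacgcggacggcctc
Cry1: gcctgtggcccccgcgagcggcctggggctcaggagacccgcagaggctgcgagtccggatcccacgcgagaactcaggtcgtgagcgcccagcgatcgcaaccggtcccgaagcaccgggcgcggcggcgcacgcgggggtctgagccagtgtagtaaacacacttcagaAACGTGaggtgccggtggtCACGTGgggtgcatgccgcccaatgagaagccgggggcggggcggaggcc
Nr1d1: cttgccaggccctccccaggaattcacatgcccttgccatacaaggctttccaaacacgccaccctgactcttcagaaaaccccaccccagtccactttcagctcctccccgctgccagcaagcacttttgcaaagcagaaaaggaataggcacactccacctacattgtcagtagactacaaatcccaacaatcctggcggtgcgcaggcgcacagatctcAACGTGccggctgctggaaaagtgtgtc
Dbp: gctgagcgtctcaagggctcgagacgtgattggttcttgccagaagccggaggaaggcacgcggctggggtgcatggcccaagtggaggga
One start of Per1 had an E-box 166 bases and a D-box 24 bases before it, and Cry2 had the variant 166 bases before its start. Windows of Arntl, Clock and Nr1d2 held none of the letters searched. Bases outside the windows were not searched, so elements after a start or farther before it would be missed, in these genes and in Dbp. A match is a description of these letters, and the genes with an E-box or its variant had log2 fold changes from -0.37 (Nr1d1) to 0.21 (Cry1).

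Across the 7 libraries the clock genes did not vary as a single block. Of 45 pairs of genes, 25 had a positive and 20 a negative Pearson r of log2 CPM, and none passed the two-sided exact permutation test after adjustment over the 45 pairs, where the lowest adjusted p was 0.268 for Pearson's r and 0.720 for Spearman's rho. The closest pair was Cry2 and Nr1d1, with r = 0.90 (exact permutation p = 0.0060) and rho = 0.86 (exact permutation p = 0.0238), and r = 0.82 without the 2 libraries farthest from the median of Cry2. Clock and Nr1d2 had r = 0.79 (exact permutation p = 0.0345, adjusted p = 0.777) and rho = 0.75 (exact permutation p = 0.0663, adjusted p = 0.745). Their r fell to 0.52 without the 2 libraries farthest from the median of Clock, and whether it rests on them was not tested. Arntl and Dbp, which peak at opposite times of the cycle in muscle, had r = -0.37 (exact permutation p = 0.405, adjusted p = 0.848) and rho = -0.25 (exact permutation p = 0.595, adjusted p = 0.8997), and r = -0.57 without the 2 farthest libraries. Taken as deviations from the group means, the r of Arntl and Dbp was -0.74 and that of Nr1d2 and Dbp was 0.89. The latter was the largest of the 45 pairs, and r of deviations was not tested. Over all libraries the r of Nr1d2 and Dbp was 0.35, and without the 2 libraries farthest from the median of Nr1d2 it was -0.12. Nr1d1 and Dbp had r = 0.64 (exact permutation p = 0.109, adjusted p = 0.777) and rho = 0.82 (exact permutation p = 0.0341, adjusted p = 0.720). As deviations from group means their r was 0.10, and that of Cry2 and Nr1d1 was 0.80. All libraries share their scaling, and no batch is named in the labels.

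**Figure D4:**
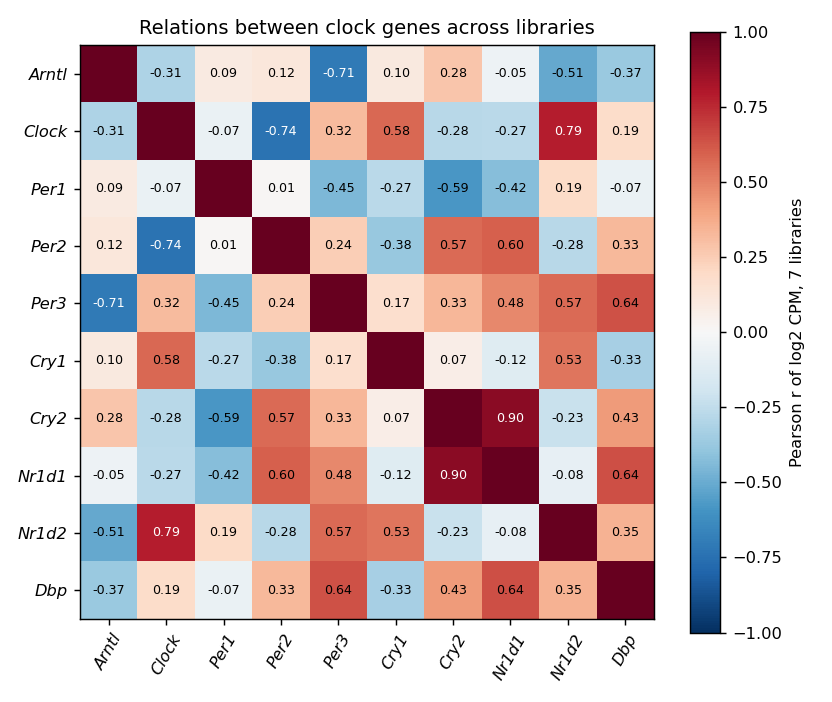
Pearson r of log2 CPM over the 7 libraries for each pair of clock genes, from -1 (blue) to 1 (red). Cry2 with Nr1d1 (0.90) and Clock with Nr1d2 (0.79) are the strongest positive cells and Clock with Per2 (-0.74) and Arntl with Per3 (-0.71) the strongest negative ones, none of them past the test after adjustment.

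The ratio of Dbp to Arntl CPM, output over activator within a library, was 5.79, 2.38, 3.06 and 8.79 in Sirt7 scKO replicates 1 to 4 and 7.76, 8.66 and 5.78 in control replicates 1 to 3. Sirt7 scKO replicates 2 and 3 had the lowest ratios and Sirt7 scKO replicate 4 the highest of all libraries, so the groups overlapped. Outside the 10, the genes with the profile most like that of Arntl were Atg9b, Gm23212 and Gm12928, and those most like Dbp were 2410004B18Rik, Timp2 and Selenow. They had the highest likeness, measured as the correlation of log2 CPM over 7 libraries, among 13921 genes with a mean of at least 5 CPM, of which 45 reached 0.9 with Arntl and 128 with Dbp, and no test was made.

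Dbp has close relatives that bind the same D-boxes, Tef and Hlf, and a repressor that competes with them, Nfil3. Tef stood at 119.7, 91.8, 102 and 117 CPM in Sirt7 scKO libraries and 136, 133 and 122 CPM in control libraries. As in Dbp, each Sirt7 scKO library was below each control library and replicate 2 was the lowest (log2 fold change -0.28, SE 0.0997, edgeR adjusted p = 0.259). Nfil3 lay the other way, at 16.7, 17.4, 18.6 and 20.2 CPM in Sirt7 scKO and 15.5, 16.2 and 15.8 CPM in control, again without overlap (log2 fold change 0.20, SE 0.128, edgeR adjusted p = 0.521). Hlf had 10 to 29 counts per library and a log2 fold change of -0.33 with an interval of -1.16 to 0.49. None of the 3 passed the threshold. The ratio of Dbp to Tef CPM within a library overlapped, at 0.224 to 0.412 in Sirt7 scKO and 0.408 to 0.446 in control. That of Dbp to Per3 did not, at 0.751 to 1.21 in Sirt7 scKO and 1.42 to 1.65 in control. Both ratios were looked at after the values were seen.

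Of the other activators, Npas2, a paralog of Clock, had a log2 fold change of -0.55, Arntl2, a paralog of Arntl, one of -0.13, and Rora, a receptor that activates Arntl, one of -0.21. None of the 3 passed the threshold (edgeR adjusted p = 0.537, 0.886 and 0.713), and Rorb was left out with 0 to 4 counts. Among other repressors 5 were tested, 2 positive and 3 negative, none past the threshold. Bhlhe41, which competes for E-boxes, had 49.8, 39.6, 34.0 and 38.2 CPM in Sirt7 scKO and 46.0, 61.8 and 48.7 CPM in control, with overlap (log2 fold change -0.37, SE 0.140, edgeR adjusted p = 0.280). Its paralog Bhlhe40 stood at 55.8 ± 5.58 CPM in Sirt7 scKO and 65.4 ± 7.29 CPM in control (log2 fold change -0.23, edgeR adjusted p = 0.381). Of the kinases and ubiquitin ligase subunits that set the lifetime of PER and CRY proteins, 9 of 10 were tested, 4 positive and 5 negative with a median of -0.05, none past the threshold. Csnk1e, a casein kinase that marks PER, had the smallest unadjusted p, at 62.4 ± 6.45 CPM in Sirt7 scKO and 72.04 ± 6.19 CPM in control (log2 fold change -0.21, edgeR adjusted p = 0.404).

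Genes downstream of the clock or of glucocorticoids, which set it, also gave no call. Of 15 output genes 8 were positive and 7 negative (median 0.01), and of 13 tested glucocorticoid receptor targets 10 were positive and 3 negative (median 0.17). Fkbp5, a glucocorticoid-induced chaperone partner on both lists, had 175, 181, 131 and 83.8 CPM in Sirt7 scKO and 61.7, 80.7 and 66.6 CPM in control. Klf15, a clock and glucocorticoid target in muscle picked out after its values were seen, was too low to test, with 25, 13, 8 and 21 counts in Sirt7 scKO and 6, 6 and 4 counts in control. Lcn2, the other glucocorticoid target too low to test, had 9, 5, 7 and 7 counts in Sirt7 scKO and 6, 8 and 4 counts in control. In Fkbp5 the groups did not overlap, Sirt7 scKO replicate 4 was again nearest to control, and its log2 fold change was 1.04 (SE 0.212, edgeR adjusted p = 0.0798). Without Sirt7 scKO replicate 4 it passed (log2 fold change 1.22, edgeR adjusted p = 0.000848). Per1, itself a glucocorticoid target, did not share this profile, and Errfi1, another, had 154 ± 23.6 CPM in Sirt7 scKO and 121 ± 5.86 CPM in control (edgeR adjusted p = 0.221). Dusp1, a phosphatase that answers both glucocorticoids and growth signals, stood at 35.0 ± 9.73 CPM in Sirt7 scKO and 52.5 ± 12.7 CPM in control (edgeR adjusted p = 0.248). Wee1, a cell cycle kinase with E-boxes in its promoter, was at 35.6 ± 2.33 CPM in Sirt7 scKO and 30.0 ± 0.413 CPM in control (edgeR adjusted p = 0.297).

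Immediate early and heat shock genes, which answer acute signals and stress, gave no call. Of 16 cAMP and immediate early genes 12 were negative (median -0.15), and of 7 heat shock genes 6 were negative (median -0.29), none past the threshold. Junb had 111, 107, 102 and 122 CPM in Sirt7 scKO and 146, 144 and 131 CPM in control (edgeR adjusted p = 0.130). Hspa1b had 20.1, 27.7, 21.4 and 43.5 CPM in Sirt7 scKO and 52.8, 44.0 and 47.8 CPM in control (edgeR adjusted p = 0.145). Without Sirt7 scKO replicate 4 both passed, Junb at -0.40 (edgeR adjusted p = 0.0234) and Hspa1b at -1.06 (edgeR adjusted p = 0.00245), as did Fosb at -1.93 (edgeR adjusted p = 0.00842). In Junb and Hspa1b, as in Dbp and Fkbp5, Sirt7 scKO replicate 4 was the Sirt7 scKO library nearest to control. This did not hold for every named gene. In Errfi1 (185 CPM) and Nfil3 (20.2 CPM), whose groups did not overlap either, replicate 4 was instead the farthest from control. Leaving it out took the log2 fold change of Errfi1 from 0.34 to 0.24. The part of replicate 4 in the Dbp difference was not tested.

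**Figure D5:**
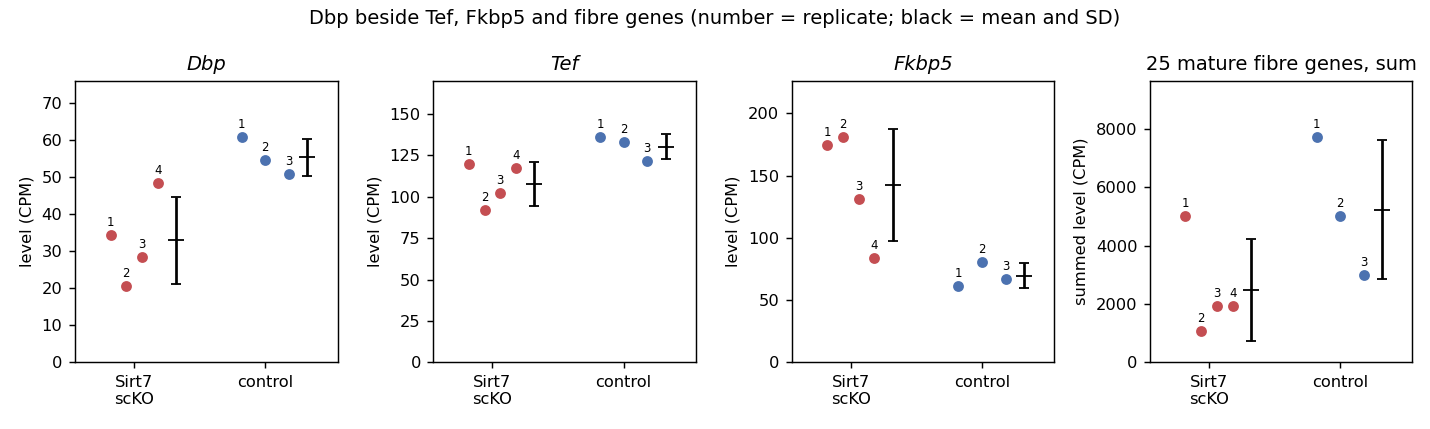
Levels in CPM of Dbp, its relative Tef and the glucocorticoid target Fkbp5, and the summed CPM of 25 mature fibre genes (vertical axes from 0), in Sirt7 scKO (red) and control (blue) libraries, with replicate numbers and mean and SD in black. In Dbp (48.2 CPM) and Fkbp5 (83.8 CPM) Sirt7 scKO replicate 4 lies nearest to control, and the fibre sums overlap between groups.

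Cell type markers also differed between libraries. All 25 mature fibre genes had negative log2 fold changes (median -1.03, none past the threshold), and their summed level was 5031, 1061, 1932 and 1935 CPM in Sirt7 scKO replicates 1 to 4 and 7718, 5017 and 2988 CPM in control replicates 1 to 3. In the same order, Dbp stood at 34.2, 20.5, 28.4 and 48.2 CPM in Sirt7 scKO and 60.6, 54.4 and 50.6 CPM in control. All 9 genes of regenerating fibres were negative (median -1.01), with sums of 258 to 393 CPM in Sirt7 scKO and 347 to 993 CPM in control. Summed monocyte and macrophage markers (15 of 15 tested) were 12637.5 to 15844 CPM in Sirt7 scKO and 13620 to 14469.9 CPM in control, and fibro-adipogenic progenitor markers (10 of 10) 7103 to 8073 CPM in Sirt7 scKO and 7283 to 8024 CPM in control. Stem cell markers (9 of 10) summed to 1007 to 1189 CPM in Sirt7 scKO and 1141 to 1849 CPM in control, and endothelial markers (8 of 8) to 423 to 488 CPM in Sirt7 scKO and 424 to 500.3 CPM in control. Of 4 tested neutrophil markers 3 were positive (median 0.99, none past the threshold), with sums over these 4 of 105 to 169 CPM in Sirt7 scKO and 109.8 to 116 CPM in control. Of the 2 untested, Cxcr2 had 14, 14, 11 and 9 counts in Sirt7 scKO and 0, 4 and 4 counts in control, and Retnlg had 0 to 2 counts in all libraries. All 5 red blood cell genes were positive (median 1.11, all at an unadjusted p under 0.05, none past the adjusted threshold in edgeR), with sums of 112 to 492 CPM in Sirt7 scKO and 102 to 114 CPM in control. Lymphocyte markers (2 of 7) summed to 9.43 to 21.1 CPM in Sirt7 scKO and 14.4 to 19.8 CPM in control. The part of these cell types in the clock gene values was not tested.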

How the data were processed

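The authors deposited raw counts per gene for 7 libraries. Per the submitters' processing notes the tools included featureCounts, Bowtie2 and fastp, on GRCm38 or mm10, with no versions or roles; the sources used here do not give annotation, strand or multi-mapping settings. Identifiers were matched without version to GENCODE release M21 (48144 of 48820). Genes were kept with filterByExpr (minimum count 10, minimum total 15) and tested over the whole table with edgeR 4.0.16 in R 4.3.3 (TMM, quasi-likelihood F test, Benjamini-Hochberg, threshold 0.05). Log2 CPM used a prior count of 2. No Sirt7 scKO or control pair matched within sampling noise. DESeq2 1.42.0 and limma voom 3.58.1 were alternatives. Correlations used all 5040 orders of 7 libraries. The fit and the permutation test were also tested on simulated data.

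The clock genes and the other lists were chosen with earlier results of these data known. All 10 clock genes and, from other clock lists, any detected gene may be named, and from the remaining lists the 3 genes with the smallest unadjusted p. Ckm, Klf15, Lcn2, Cxcr2 and Retnlg fall outside this rule and were chosen after their values were seen. Marker lists are given as sums. Some listed genes are not reported here. Replicates are named in the labels as biological replicates, and p-values cover the spread between these libraries.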

Additional observations from a re-analysis of the deposited data

Results flagged for a closer look

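In 46 groups of 4 Sirt7 scKO libraries checked over the clock genes, the other named genes and the marker sums, 2 held a library far from the others, and chance gives about 1 in 20. Fosb, an immediate early gene, stood at 4.54 CPM in Sirt7 scKO replicate 4 and at 1.27 to 1.497 CPM in the other 3. The summed red blood cell genes stood at 492 CPM in Sirt7 scKO replicate 3 and at 112 to 163 CPM in the others. None of the core clock genes was among them.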

How the results depend on the processing

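The 10 clock genes had 170 log2 fold changes under alternatives, of which 157 kept their direction and side of the threshold. Dbp passed in 4 of 17: without a filter (-0.75, edgeR adjusted p = 3.2e-05), with DESeq2 (-0.76, adjusted p = 0.0286), with the replicate block (-1.01, edgeR adjusted p = 0.00104) and without Sirt7 scKO replicate 4 (-0.997). Each of these settings therefore gave 1 clock gene past the threshold, and leaving out 1 library gave 0 to 1. In the same settings, 585 of 28443, 168 of 14115, 537 of 16764 and 330 of 16794 tested genes passed. The replicate number 4 occurs in Sirt7 scKO alone, so the block leaves that library without weight. Same-numbered libraries did not deviate together (r of -0.07 to 0.12), and 1 of 3 control libraries correlated best with its own number. This gave no sign that the numbers pair the samples, but so few libraries cannot exclude pairing. Arntl turned to 0.052 with the block and ran from -0.18 to 0.070 with 1 library left out, Per1 from -0.067 to 0.14 and Per3 from -0.18 to 0.047. Of the 13 other named genes, whose alternatives were added after their values were seen, none turned its sign, and 17 of 221 values gained a call: Hspa1b and Junb without a filter, with DESeq2, with the replicate block and without Sirt7 scKO replicate 4, Fkbp5 and Fosb in these settings other than DESeq2, Dusp1 without a filter and with the block, and Errfi1 without a filter. Over all genes 22 passed, against 35 with total-count scaling, 585 without a filter, 168 with DESeq2, 56 with robust dispersion, 537 with the replicate block, 5 among protein-coding genes alone, 80 at an adjusted p of 0.1 and, with 1 library left out, 0 (without control replicate 2) to 330 (without Sirt7 scKO replicate 4). Pairs of clock genes with an r of at least 0.8 in size numbered 1, and 2 when taken as deviations from group means. The causes were not tested. Counts were lowest for Arntl and Cry1, with 29 to 66 and 42 to 81 counts per library.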
